A study of Mus musculus with 2 samples.

Results

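Sites of C-to-U conversion that lie in genes with 10 to 19 listed sites are described here. The members are the rows of the deposited site list whose gene name occurs in 10 to 19 rows. They are 2178 of the 17755 sites and belong to 175 of the 6929 genes. The samples are nuclei from mouse cortex, stained with an antibody to NeuN and flow-sorted, in 1 group of 2 libraries. Both libraries carry the genotype label APOBEC1-YTH, and the mice were 10 weeks old when tamoxifen began, at 20 mg/kg each 24 hours, with collection 7 days after the last dose. The labels name neither the promoter that drives the transgene nor the animals behind each library.

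N6-methyladenosine (m6A) is the most common internal modification of messenger RNA. A methyltransferase complex places it in the nucleus, mainly in long internal exons and near stop codons, and proteins with a YTH domain bind it. APOBEC1-YTH joins such a domain to a cytidine deaminase, so that cytidines near a methylated adenosine are converted to uridines and read as C-to-T changes in cDNA. A gene with many sites can therefore hold several methylated adenosines, several edited cytidines around one adenosine, or both. A listed site need not mark a methylated adenosine. The control behind the list is not known here, and conversion without m6A was not tested.

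The bases of a site could be read only where it lies in a RefSeq promoter window, which runs from 250 bases before a transcription start to 50 bases after it, on GRCm38.p6 (mm10). Such windows held 9 of the 2178 sites, in 7 genes. They are printed to show which base the list marks and what surrounds it, written 5′ to 3′ on the strand of the site, with the listed base in capitals.
Fat1, chr8:44950231-44950251, plus strand: cttgcttctgCttctgctcct
Flt1, chr5:147725999-147726019, minus strand: tgcacttcagCgaggtccttg
Crebbp, chr16:4213355-4213370, minus strand: ccccacccggCctgcg
Usp25, chr16:77013830-77013850, plus strand: cgcggcccggCttgatcgtgc
Mxi1, chr19:53329636-53329656, plus strand: agcgcggagcCcatggagcgg
Slc4a4, chr5:88887063-88887083, plus strand: gcgcagccacCcacccggcgc
Slc4a4, chr5:89225853-89225873, plus strand: catctacctgCgccacgtccc
Slc4a4, chr5:89225924-89225944, plus strand: tgctctggatCctcaagtcaa
Canx, chr11:50325604-50325624, minus strand: tagccgaggcCtcttagttct
All 9 listed bases are cytidines on the strand of the site. The base before the cytidine was G at 5 of them, C at 3 and T at 1. The letters GAC or AAC, in which an adenosine is followed by a cytidine as in the m6A consensus, occurred on the printed strand in 0 of the 8 windows of 21 bases. Among 21-base windows around every cytidine of all RefSeq promoter windows, read on the gene's strand, 38.0% held GAC or AAC. Among the 232 listed sites of all genes with such a window, 36.6% did. With 8 windows, nothing is read from the 0. The levels of these sites ranged from 1.01% in Slc4a4 to 8.70% in Usp25. The Flt1 and Fat1 sites lay 2 and 33 bases after the start of their window's transcript, and the Crebbp site 44 bases after it. The sites of Mxi1 and Usp25 and the first of Slc4a4 lay before the start, and the other 3 lay in windows of other genes.

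The members were chosen by how many sites the list holds for a gene, so that number is not a result. The editing level is the deposited value per site, given here in percent; it starts at 1.0%, and neither library has values of its own. No spread between libraries and no test across samples can be had, and every SD is a spread across the sites of a gene. Read depth is unknown, and its part in the number and the level of sites was not tested. All differences between genes or groups of genes are descriptions. Intervals treat the sites as independent, although the sites are grouped in 175 genes, so the intervals may be too narrow.

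Sites of these genes had low levels. The median was 2.52% over the 2178 sites (exact binomial 95% interval of the median 2.44% to 2.63%), with quartiles of 1.60% and 4.29%. Single-site genes had a median of 6.06%, genes with 2 to 9 sites 3.57% and genes with 20 or more sites 2.24%. Levels below 2% were held by 815 member sites (37.4%), against 24.6% of all listed sites. Levels of at least 10% were held by 120 member sites (5.51%), against 14.9% of all sites, and levels of at least 20% by 12 (0.551%), against 2.02%. The highest site of a gene showed another order. Its median over genes was 8.0% here, 6.90% in genes with 2 to 9 sites and 6.06% in single-site genes, and a highest value is taken over more sites where a gene has more.

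**Figure D1:**
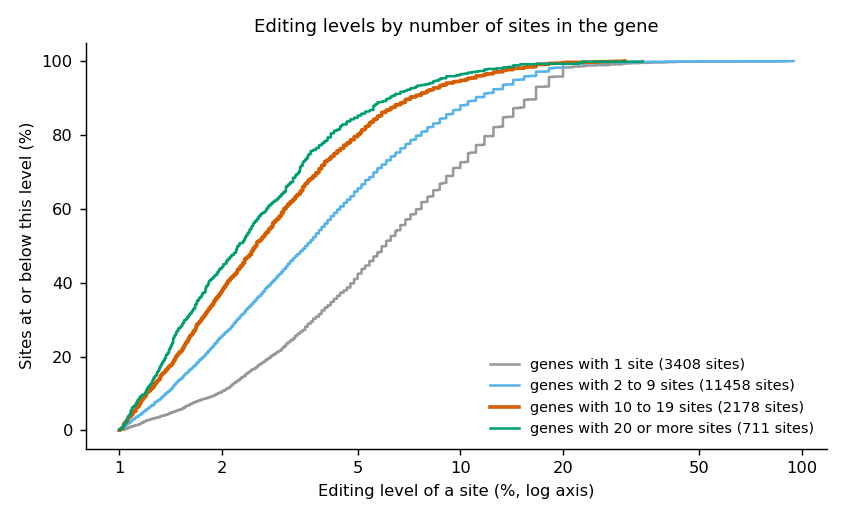
Cumulative share of sites (vertical axis, %) by editing level (horizontal axis, %, log axis) for genes with 1, 2 to 9, 10 to 19 and 20 or more sites. The curve of the 2178 sites in genes with 10 to 19 sites has its median at 2.52% and lies between those of genes with 2 to 9 sites (3.57%) and 20 or more (2.24%).

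The limits of the rule cut through a gradual range. The 68 genes with 9 sites, just outside, had a median level of 2.50% and a median distance between neighbouring sites of 671.5 bases. The 41 genes with 10 sites, just inside, had 2.86% and 513 bases. At the upper limit, the 6 genes with 19 sites (Apc, Fam171b, Fat1, Rgs5, Tcf4 and Zfp644) had a median level of 2.76% and a median distance of 164 bases. The 5 genes with 20 sites (Agpat3, Dag1, Nfasc, Ptprz1 and Slc1a4) had 2.22% and 115 bases.

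Most of the variation in level lay inside genes. Differences between gene means held 29.3% of the variance of log2 level across the 2178 sites, and the rest lay between sites of the same gene. The highest site of a gene was a median of 6.13 times its lowest (quartiles 4.56 and 8.78 over 175 genes). In 37 genes that ratio was 10 or more and in 6 genes it was under 3. The narrowest range was that of Cdc42bpa, a kinase that binds the GTPase Cdc42, with 10 sites between 1.54% and 3.75%. The widest was that of Kmt2c, with 16 sites between 1.03% and 25.6%.

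Gene means ran from 1.53% to 10.99%. Thap12, which encodes a THAP-type zinc finger protein, had the highest mean, 10.99% ± 6.75 (SD across 14 sites), with sites from 3.92% to 28.6% around a median of 10.0%. The atypical cadherin gene Fat4 had 10.4% ± 7.15 across 10 sites, with a lowest site of 3.33% and a highest of 25.0%. Kcnq1ot1, a long noncoding RNA transcribed from the imprinted Kcnq1 locus, had 9.76% ± 3.85 across 10 sites. The cell adhesion gene Cadm2 followed with 9.43% ± 4.21 across 15 sites, the phosphate exporter gene Xpr1 with 7.97% ± 4.79 across 14 and Tmem184c with 7.64% ± 4.03 across 12. In these 6 genes the lowest site lay between 1.67% and 3.92%. Some levels recurred in different genes of this set, 16.67% in Thap12, Fat4 and Kcnq1ot1 and 14.29% in Cadm2 and Kcnq1ot1. The read counts behind the high means are unknown. A few edited reads at low depth could give such levels, and the part of depth in the high means was not tested.

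At the other end, the spectrin gene Sptbn1, part of the membrane skeleton, had a mean of 1.53% ± 0.976 across 11 sites and a median of 1.21%. Lrp1, an endocytic receptor, had 1.55% ± 1.22 across 17 sites. Of those, the highest was 6.25% and the next 1.68%. The latrophilin gene Adgrl1 had 1.71% ± 0.515 across 12 sites, and all of them lay between 1.09% and 2.82%. Glud1, the mitochondrial glutamate dehydrogenase gene, had 1.75% ± 0.781 across 13 sites. Means of the corepressor gene Ncor1 and the transcription factor gene Nfix were 1.82% ± 0.837 (12 sites) and 1.82% ± 0.909 (11 sites). In all, 22 genes had a mean under 2%, 27 a mean of 5% or more, and in 40 genes every site was under 5%. Means this close to 1.0% rest on the floor of the list, since sites below it are not listed.

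**Figure D2:**
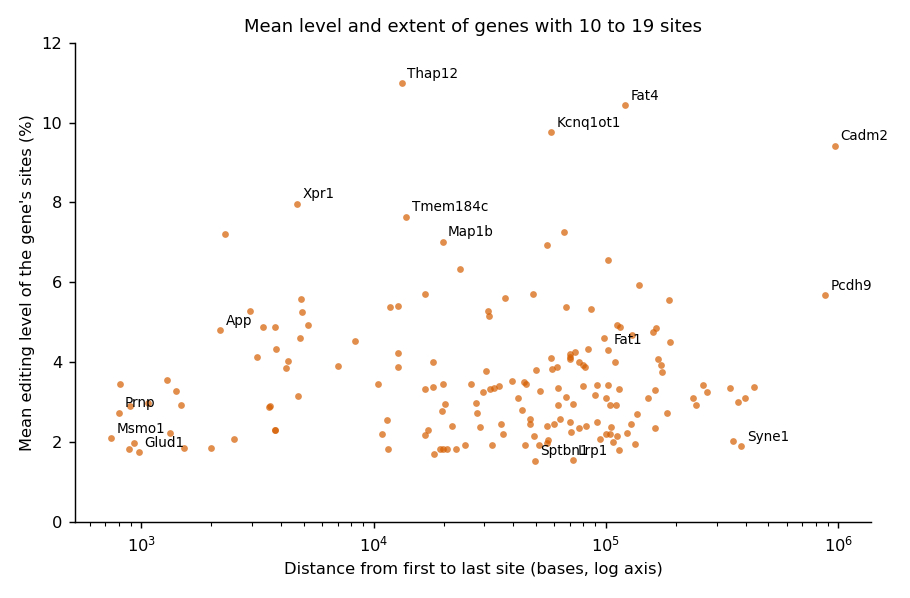
Mean editing level of a gene's sites (vertical axis, %) against the distance from its first to its last site (horizontal axis, bases, log axis), 1 point for each of the 175 genes. Means under 2% occur at extents from 889 bases (Kcnk1) to 382905 bases (Syne1), and the 4 highest (Thap12, Fat4, Kcnq1ot1 and Cadm2, 9.43% to 10.99%) lie at extents from 13253 to 964565 bases.

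Single sites stood far above the rest of their gene in several members. The highest member site was in Hip1, a clathrin-binding endocytic adaptor gene, at 30.4% (chromosome 5, position 135544991), 332 bases from the 5′ end of the gene span. The next Hip1 sites were at 16.7% and 10.3%, and the median of its 17 sites was 3.85%. In Thap12 the site at position 98716253 of chromosome 7 was at 28.6%. The Celsr2 site at 108390915 of chromosome 3, 67 bases from the 3′ end, was at 27.3% and the second highest of that gene at 8.0%. Kmt2c, a histone methyltransferase gene, had 1 site at 25.6% and 1 at 22.96%, 27235 and 172074 bases from its 3′ end; the third highest was at 6.67% and the median at 1.72%. Abat and Fat4 reached 25.0% each. In Abat, which breaks down the transmitter GABA, the second highest site was at 6.90%. In 26 of the 175 genes the highest site was at least 2 times the second. Some of the highest levels recurred in different genes, 25.0% in Abat and Fat4 and 20.0% in Fat1, Itih5, Pcdh10 and Xpr1. The read counts behind these levels are unknown. A few reads could give such levels, and this was not tested.

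Neighbouring sites lay close together. Over 2003 pairs of neighbours in the 175 genes, the median distance was 328 bases (exact binomial 95% interval of the median 284 to 379), with quartiles of 67 and 2576 bases. It was 1493 bases in genes with 2 to 9 sites and 100 bases in genes with 20 or more. The median distance from first to last site was 9652 bases in genes with 2 to 9 sites. It was 48368 bases in genes with 10 to 19 sites and 20499 bases in genes with 20 or more. Another site of the gene lay within 100 bases of 977 member sites (44.9%), against 22.8% of all sites and 28.3% of the 14347 sites in genes with 2 or more. A neighbour within 20 bases was present for 372 (17.1%), against 8.72% of all and 10.8% of those 14347. The choice of genes with at least 10 sites in part fixes these differences. At 3 places adjacent bases were both listed. They were in Endod1, at 2.27% and 3.96%, in Pclo, at 1.83% and 2.04%, and in Tcf20, at 1.77% and 3.48%. In 10 genes no site had another within 100 bases: Arhgap21, Flt1, Herc1, Limch1, Lrp1, Qk, Srcin1, Syne2, Trrap and Wnk1.

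**Figure D3:**
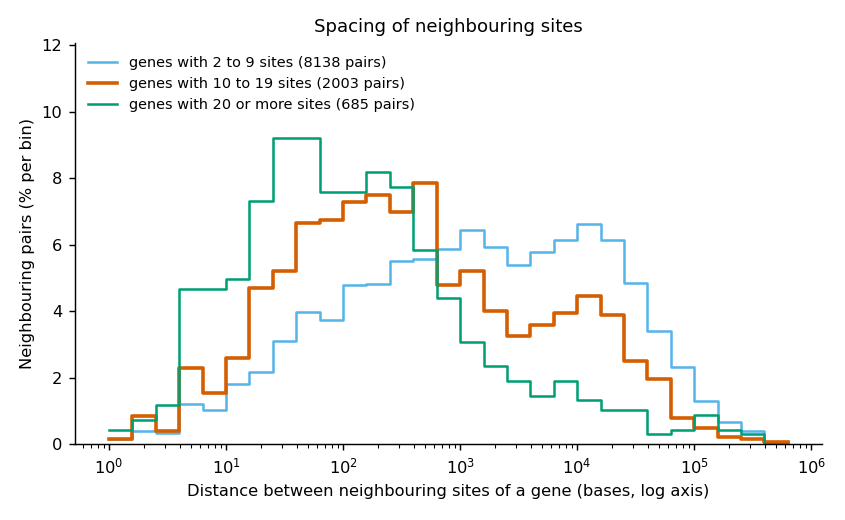
Distances between neighbouring sites of a gene (horizontal axis, bases, log axis) as shares of all neighbouring pairs (vertical axis, % per bin) for genes with 2 to 9, 10 to 19 and 20 or more sites. The 2003 pairs of genes with 10 to 19 sites have their median at 328 bases, between those of genes with 2 to 9 sites (1493 bases) and 20 or more (100 bases), and their upper quartile at 2576 bases.

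Sites that lay close together had similar levels. Of the 209 neighbouring pairs at most 20 bases apart, 83.3% differed by no more than 2-fold, and the median ratio of the higher to the lower level was 1.31. For 415 pairs 21 to 100 bases apart the share was 78.1% and the median ratio 1.41. For 688 pairs 101 to 1000 bases apart they were 65.8% and 1.62, and for 691 pairs farther apart 69.8% and 1.56. Any 2 sites of the same gene differed by a median of 1.71-fold over 12962 pairs. Across neighbouring pairs, Spearman's rho of their levels was 0.690 at up to 20 bases and 0.331 beyond 1000 bases. These pairs share their gene and both libraries, and close sites can also lie on the same reads.

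The distance from the first to the last site ranged from 743 bases in Msmo1 to 964565 bases in Cadm2, with a median of 48368 bases. In 33 genes (18.9%) all sites lay within less than 5 kb, in 96 (54.9%) they extended over 5 kb to less than 100 kb, and in 46 (26.3%) over 100 kb or more. The median gene mean was 3.15%, 3.34% and 3.28% in these 3 sets. The median length of the gene span was 27881, 83022 and 179862 bases. Sites inside a span cannot extend beyond it, so this order is in large part fixed in advance.

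RefSeq spans were found for 173 of the 175 genes and held 2140 of the 2178 sites. The gene table gives spans without exons, so whether a site is exonic, intronic or in a UTR was not determined. Within 5 kb of the 3′ end of the span lay 1076 of the 2140 sites (50.3%, exact 95% interval 48.1% to 52.4%), against 49.7% of the 16865 sites of the whole list that lie inside a span. The first 1 kb held 64 member sites (2.99%), against 8.0% of those 16865. Sites of the last 5 kb had a median of 2.90% (quartiles 1.77% and 5.0%), and the 1064 others a median of 2.17% (1.48% and 3.64%). Of the 125 genes with sites in both places, 93 had the higher mean in the last 5 kb, with a median difference of 0.84 percentage points. Coverage along the genes is not in the table, and its part in this difference was not tested.

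**Figure D4:**
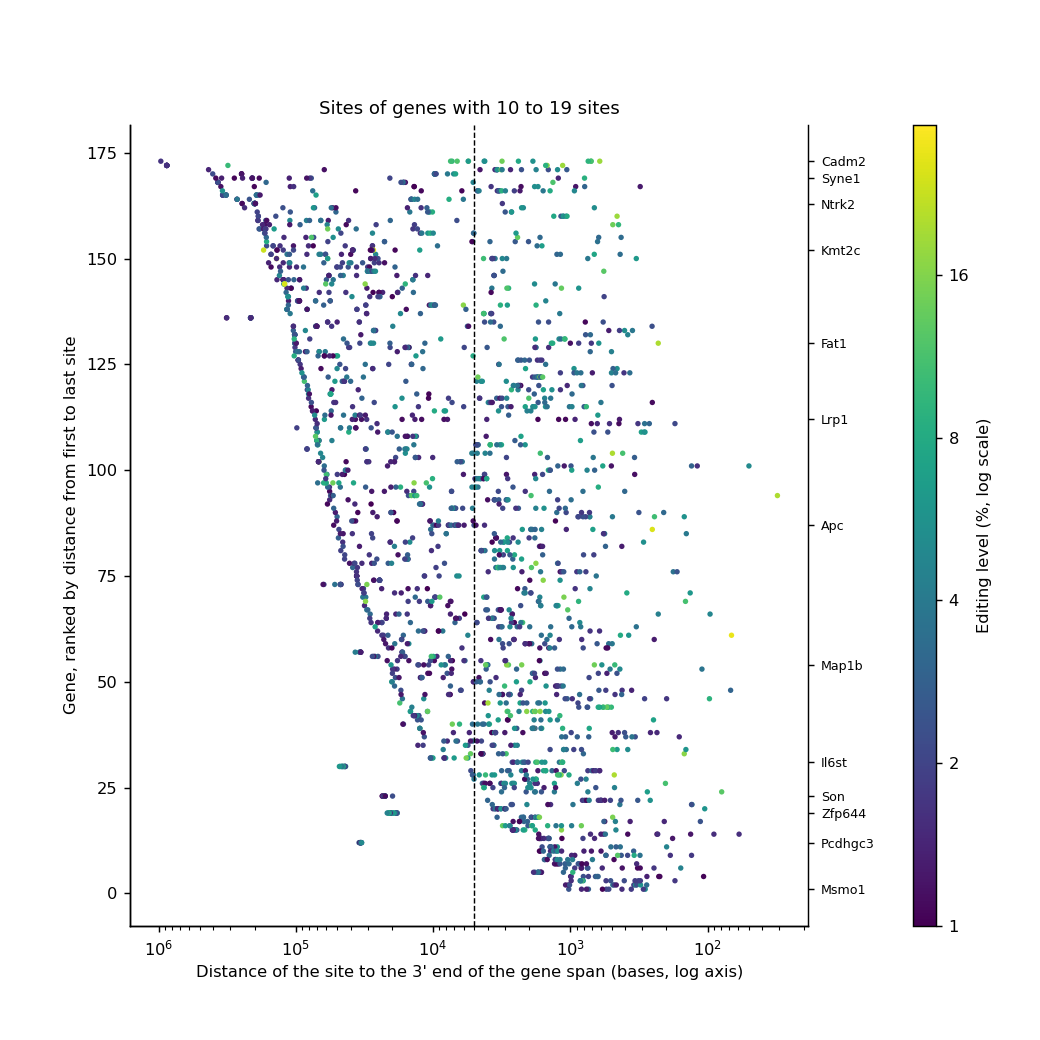
Each point is a member site, placed by its distance to the 3′ end of its gene span (horizontal axis, bases, log axis, the end at the right) and by the rank of its gene in extent (vertical axis), with the editing level as colour; the dashed line marks 5 kb. The 173 genes range from compact sets near the end (Msmo1) and compact sets away from it (Pcdhgc3, Zfp644, Son) to sets spread along the gene (Syne1); the long extent of Cadm2 comes from 1 site near its 5′ end.

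In 24 genes every site inside the span lay in the last 5 kb, and 21 of those spans are longer than 10 kb. Msmo1, an enzyme gene of cholesterol synthesis, had its 11 sites within 743 bases, from 285 to 1028 bases before the end, at levels of 1.04% to 5.05%. Prnp, the prion protein gene, had 11 sites within 806 bases at 1.21% to 5.56%, and each had a neighbour within 100 bases. Psat1, of serine synthesis, had 13 sites within 814 bases at 1.59% to 11.9%. The leak potassium channel gene Kcnk1 had 11 within 889 bases at 1.02% to 3.39%, Tril, which encodes a partner of Toll-like receptors, 11 within 895 bases at 1.17% to 9.09%, and Fjx1 12 within 931 bases at 1.07% to 4.55%. The span of Fjx1 is 2427 bases, so its sites could only lie in the last 5 kb, and that of Tril is 5358 bases. Glud1 had 13 sites within 976 bases. In App, the amyloid precursor gene, 15 sites lay within 2183 bases of a span of 222590 bases, and 10 of them formed 1 run with steps of at most 100 bases. Gpm6a, a neuronal membrane glycoprotein gene, had all 11 sites within 1067 bases of a span of 281445 bases.

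In other members the sites were concentrated away from the annotated end. A stretch of 2 kb held more than 5 sites in 108 genes, and in 23 of them the centre of that stretch was 5 kb or more from the 3′ end. In Zfp644, a zinc finger gene, all 19 sites lay within 3350 bases, between 18277 and 21627 bases from the end, at 1.38% to 8.70%. The protocadherin gene Pcdhgc3 had all 13 sites within 1483 bases, around 1518 bases from its 5′ end, at 1.0% to 5.08%. In Son, which encodes a protein of nuclear speckles, 10 of 11 sites lay within 1197 bases, about 22926 bases from the end, and the median was 1.35%. Tcf20 had 13 sites within 4826 bases and Tulp4 had 8 of its 12 within 428 bases, about 102148 bases from the end. In Ntrk2, the receptor gene for BDNF, which is also known to produce a truncated receptor, 8 of 18 sites lay within 1878 bases at about 200715 bases from the 3′ end, and 1 site lay in the last 5 kb. Fmn2, an actin nucleator gene, had 8 of 10 sites within 1549 bases, about 213564 bases from the end. In Pcdh9 7 of 12 sites lay within 1281 bases, about 6363 bases from the 5′ end, and 3 lay in the last 5 kb. Those 3 were at 8.70%, 16.7% and 18.2%, while the median of all 12 was 1.92%. A site of Pcdh9 outside the last 5 kb was at 10.0%.

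In 67 genes no 2 kb stretch held more than 5 sites. Not all of these were spread thinly: Zfp871 had its 11 sites within 4903 bases, and Cdc37l1 had 5 of 11 within 118 bases. Others were. Syne1, which encodes the giant nuclear envelope protein nesprin-1, had 16 sites over 382905 bases, at most 4 of them within 2 kb, with a median of 1.36% and a highest level of 8.70%. Herc1, a very large ubiquitin ligase gene, had 12 sites over 135624 bases and Syne2 11 over 172619 bases, with at most 2 in any 2 kb. The longest extent, that of Cadm2, was of another kind. It had 14 of its 15 sites between 611 and 7467 bases from the 3′ end and 1 site, at 1.67%, lay 325 bases from the 5′ end, with a gap of 957709 bases before it.

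The functions of the 175 genes were sorted into 14 groups with the gene names known. Of these, 1 is for other genes or genes given no role, and the groups serve only to order the description. Adhesion and guidance genes, 17 in number with 215 sites, had the highest median gene mean of these groups, 4.50%. Fat1, an atypical cadherin gene (chromosome 8, 44933100 to 45052257), led with 19 sites at a mean of 4.31% ± 4.35, a lowest level of 1.15%, a median of 2.78% and a highest of 20.0%. Ptprb, the vascular endothelial receptor phosphatase gene (chromosome 10), had 17 sites at 5.33% ± 5.26, of which 10 formed 1 run with steps of at most 100 bases. Pcdh10 had 14 sites at 6.93% ± 6.29, the integrin subunit gene Itgav 13 at 5.60% ± 3.02 and the junctional adhesion gene Jam2 12 at 7.21% ± 4.09. Lower means were those of the semaphorin receptor gene Plxnb1 (13 sites, 1.84%) and the neural cell adhesion gene Ncam1 (12 sites, 2.80%). Heg1, Tenm3, Celsr2, Cntn2 and Clstn1 had 10 to 12 sites each at means of 2.94% to 6.33%. Of the group's 215 sites, 102 (47.4%) were in the last 5 kb, against 49.7% of all listed sites inside a span.

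Signalling receptor genes numbered 16, with 216 sites and a median gene mean of 2.92%. Notch2, a receptor of the Notch pathway (chromosome 3, 98013538 to 98150367), had 18 sites at 4.01% ± 2.33, 13 of them in the last 5 kb. Its paralog Notch1 had 14 at 1.82% ± 1.02, 5 of them there. Ntrk2 (chromosome 13, 58806472 to 59133970) had 18 at 2.93% ± 2.62, from 1.09% to 12.9%. Il6st, the shared signalling subunit of interleukin-6 family receptors, had 17 at 5.57% ± 3.52, and 16 of the 17 lay within one 2 kb stretch. The BMP receptor gene Bmpr2 had 15 sites at 4.93% ± 4.09, Tnfrsf19 14 at 2.40% ± 1.10 and the sorting receptor gene Sort1 13 at 2.37% ± 1.05. Lgr4, a receptor for R-spondins, had 12 sites between 1.18% and 3.03%. Grm3, a metabotropic glutamate receptor gene, had 11 at 2.93% ± 1.33, and the sphingosine-1-phosphate receptor gene S1pr1 11 at 2.07% ± 1.08. Lrp4 and Adgrf5 had 12 sites each at 3.54% and 5.15%.

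Genes of GTPase, kinase and phosphatase signalling formed the largest group apart from that of other genes, 20 genes with 255 sites. They had a median gene mean of 2.44%. Rgs5, a regulator of G protein signalling known from pericytes (chromosome 1, 169655501 to 169695813), had 19 sites at 3.15% ± 2.51, 15 of them within one 2 kb stretch. Sash1 had 17 at 2.17% ± 1.10 and Erbin, which binds the receptor ERBB2, 16 at 2.20% ± 0.788. Ppp2ca, the catalytic subunit of protein phosphatase 2A, had 14 sites at 2.31% ± 1.23, 13 of them with a neighbour within 100 bases. Pik3r1, the regulatory subunit of PI3 kinase, had 14 at 2.72% ± 2.05. Regulators of small GTPases were Arhgap35 (11 sites, 4.13%), Dlc1 (12, 3.0%), Arap2 (13, 2.35%), Arhgef12 (12, 2.05%), Prex1 (12, 1.93%) and Arhgap21 (11, 1.93%). The kinase anchoring genes Akap6 and Akap9 had 12 and 13 sites, 0 of them in the last 5 kb. Spred1, Grk3, Gab1, Gna12, Pde4dip, Wnk1 and Cdc42bpa had 10 to 13 sites each, at means of 2.25% to 4.61%.

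Chromatin and cofactor genes, 13 with 159 sites, were spread widely. Of the 159 sites, 37 (23.3%) were in the last 5 kb, against 49.7% of all listed sites inside a span. The median extent of these genes was 91237 bases and their median gene span 128962 bases. The histone methyltransferase genes Kmt2c (16 sites), Nsd1 (15, 2.20%), Ash1l (14, 2.15%) and Kmt2a (10, 3.12%) and the acetyltransferase genes Kat6a (14, 3.41%) and Crebbp (13, 2.44%) were among them. Kat6a had 9 of its 14 sites in the last 5 kb, Kmt2c 0 of 16 and Ash1l 1 of 14. The remodeller gene Chd7 had 11 sites at 2.94% ± 1.64, Trrap, a shared subunit of acetyltransferase complexes, 11 at 2.95% ± 1.78, and the coactivator genes Ncoa1 and Ncoa6 11 and 10. Msl2 had 12 and Ankrd11 10. The part of gene length in the end shares of this and the other groups was not tested.

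The 14 transcription factor genes held 171 sites with a median gene mean of 3.67%. Tcf4, a basic helix-loop-helix factor of neural development (chromosome 18, 69343429 to 69687967), had 19 sites at 3.35% ± 2.23 over 342330 bases, 14 of them in the last 5 kb. Zfp644 (chromosome 5, 106616739 to 106696834) had 19 at 4.87% ± 2.23. Zfhx3 had 12 sites at 4.08% ± 2.02, the glucocorticoid-responsive gene Klf9 12 at 3.44% ± 1.42 and the hypoxia-inducible factor gene Epas1 12 at 2.20% ± 0.888. Zeb2 and Hivep1 had 11 each at 4.23% and 4.69%, and Zfp871 11 at 5.27% ± 4.11. Mxi1, Arnt2, Tsc22d1 and Crebrf had 10 sites each at means of 2.96% to 3.89%.

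Cytoskeleton and motor genes, 15 with 200 sites, had a median gene mean of 3.10%. Apc, which regulates beta-catenin and microtubules (chromosome 18, 34220297 to 34322190), had 19 sites between 1.05% and 4.76%, 11 of them within one 2 kb stretch and 2 in the last 5 kb. Map1b, a microtubule-associated protein gene of axons (chromosome 13, 99421464 to 99516602), had 18 at 7.02% ± 5.27, with a lowest level of 1.15%, a median of 5.56% and a highest of 16.7%. Fry had 16 sites at 3.10% ± 1.59. The kinesin genes Kif1a and Kif1b had 12 sites each at 2.57% and 2.45%, and the myosin gene Myo6 12 at 2.40%. Tppp, a tubulin polymerization gene of oligodendrocytes, had 12 at 4.33% ± 3.20, all in the last 5 kb. Cep350 and Ckap5 had 12 each and Ablim1 10.

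Ubiquitin and autophagy genes, 12 with 138 sites, had the widest spacing, a median of 2206 bases between neighbours. Among them were the ubiquitin ligase genes Birc6 (13 sites, 2.23%), Trim2 (12, 4.02%), Herc2 (12, 3.10%), Mycbp2 (11, 3.75%) and Nedd4 (10, 3.94%), and Wdfy3 (13, 3.11%), which acts in selective autophagy. The deubiquitinase genes Usp25 and Usp54 had 10 sites each at 6.55% and 1.98%, and Spop, a substrate adaptor of cullin ligases, 10.

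The closest spacing was that of the 8 genes of lipid and amino acid metabolism, with a median of 100.5 bases and 86 of 96 sites (89.6%) in the last 5 kb. The median span of these genes was 27122 bases. Their median gene mean, 2.35%, was the lowest of the 14 groups. The stearoyl-CoA desaturase genes Scd2 and Scd1 had 16 and 10 sites at 1.83% ± 1.26 and 3.89% ± 2.22; they are close paralogs, and reads that fit both would make the split uncertain. Elovl5, a fatty acid elongase gene, had 12 within 1335 bases at 2.24%. Acsl6, for an acyl-CoA synthetase, had 10 at 2.46%, and Abat 11 at 5.72% ± 6.59.

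With a median gene span of 45517 bases, channel and transporter genes (9 genes, 115 sites) had 88 of 114 sites in the last 5 kb (77.2%). The cystine transporter gene Slc7a11 had 16 sites at 3.28% ± 1.39, 7 of them there. The chloride transporter gene Clcn3 had 15 at 5.38% ± 3.26, the gap junction gene Gjb6 12 within 1296 bases at 3.57% ± 3.29, and the bicarbonate transporter gene Slc4a4 13 over 352273 bases at 2.02% ± 1.58. The anion channel family members Ttyh1 and Ttyh2 had 12 and 10 sites at 1.86% and 1.93%. Kctd12, an auxiliary subunit of GABA-B receptors, had 12 at 4.92% ± 5.48.

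In proteolysis, the secretory pathway and the lysosome (12 genes, 144 sites) 108 of 142 sites lay in the last 5 kb (76.1%), and the median gene mean was 3.80%. The median gene span in this group was 57352 bases. App had 15 sites at 4.80% ± 4.10 and Bace1, the protease that cleaves its product, 11 at 4.89% ± 3.01. The carboxypeptidase gene Cpd had 16 at 5.39% ± 3.67, the cathepsin gene Ctsb 13 at 2.89% ± 1.74 and the calpain gene Capn2 11 at 3.81% ± 2.61. Among genes of glycan and glycoprotein handling, Extl3 had 14 sites, Man2a2 12, Stt3b 11 and Canx 11. Pcsk6 and Scarb2 had 10 each at 5.55% and 2.59%.

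Smaller groups completed the set. The extracellular matrix genes were the brain proteoglycan genes Ncan (15 sites, 2.40%) and Cspg5 (10, 2.32%), Prelp (10, 4.04%) and Itih5 (10, 7.26%). Synaptic genes included Pclo of the active zone (14 sites, 3.25%) and Srcin1 (11, 3.47%). RNA-binding protein genes were Qk (12 sites, 2.19%), a splicing regulator known from glia, Hnrnpu (10, 5.41%), Strbp (10, 4.26%), Secisbp2l (13, 3.45%) and Son. The remaining 26 genes were put in the group of other genes or genes given no role. Fam171b (chromosome 2, 83812563 to 83883534) led them with 19 sites at 3.85% ± 2.58, all in the last 5 kb. Soga1 had 17 at 3.35% ± 4.29, from 1.04% to 18.2%, and 0 in the last 5 kb. Luzp2 had 16 over 432162 bases, 14 of them in the last 5 kb, and Plxdc2 15 over 397148 bases. The myelin gene Mal had 16 at 1.87% ± 1.12 within 1528 bases, and 10 of them had a neighbour within 20 bases, the most among the members. Tmem184c followed with 9 of 12 such sites. Other members of this set (2610507B11Rik, 4932438A13Rik, Ankrd40, Cdc37l1, D5Ertd579e, Dop1b, Fam168a, Mfap3l, Mmd2, Scara3 and Tnrc18) had 10 to 13 sites each, at means from 2.39% in 2610507B11Rik to 5.70% in Fam168a.

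**Figure D5:**
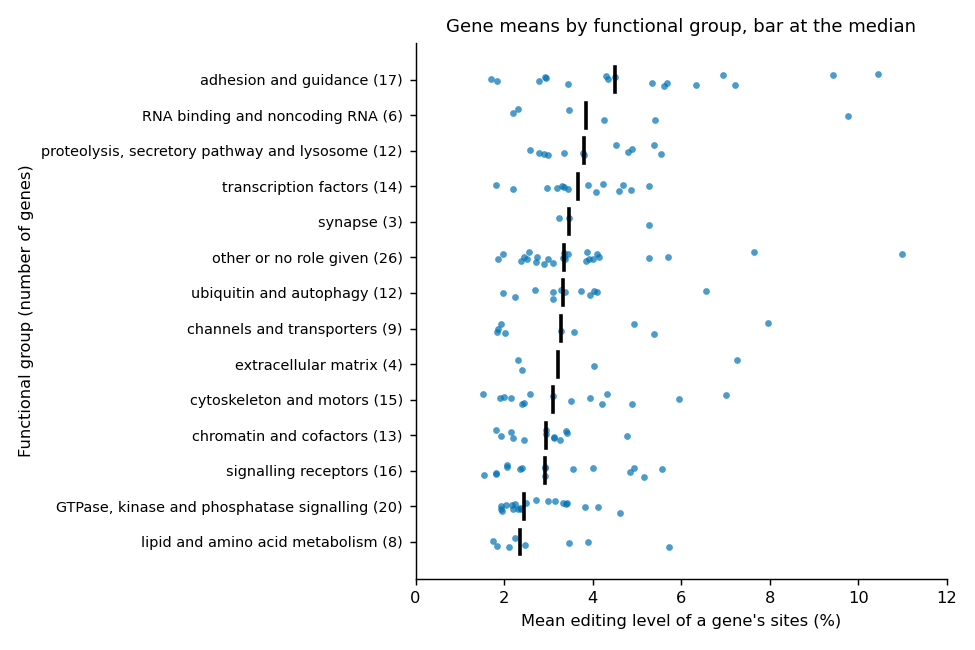
Mean editing level of each gene's sites (horizontal axis, %) for the 175 genes in 14 groups (vertical axis, number of genes in brackets). Of the groups, 1 is for other genes or genes given no role. Each point is a gene and the bar is the group's median. Group medians lie between 2.35% (lipid and amino acid metabolism) and 4.50% (adhesion and guidance), and the range of every group overlaps that of each other group.

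Of all 6929 genes with a site, 2.53% had 10 to 19 sites. Marker lists of cell types held few such genes, and with counts this small nothing is read from their differences. The astrocyte list had 3 of 20 (Acsl6, Gjb6 and Slc4a4), with 5 more at 20 or more sites. The endothelial and pericyte list had 3 of 20 (Flt1, Pdgfrb and Rgs5), the oligodendrocyte list 1 of 20 (Mal), the precursor list 1 of 10 (Cspg5) and the microglia list 0 of 20. The pan-neuronal, excitatory and inhibitory lists, of 20 genes each, had 0 members and also 0 genes with 20 or more sites. The number of genes with any site was 16 in the astrocyte list, 15 in the endothelial and pericyte list, 18 in the oligodendrocyte list, 8 in the precursor list and 11 in the microglia list, and 9, 10 and 5 in the neuronal lists. Rbfox3, which encodes NeuN, had 0. Of the genes with any site, members were 18.8% in the astrocyte list and 20.0% in the endothelial and pericyte list. They were 5.56% in the oligodendrocyte list, 12.5% in the precursor list and 0% in the microglia list and each neuronal list. The nuclei were sorted for NeuN, and the part that other cell types had in these counts was not tested. In bulk RNA, fewer cells of a type and less RNA per cell cannot be told apart.

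The other lists held members as follows. Of the listed genes with any site, members were 9 of 39 chromatin regulators, 6 of 45 transcription factors, 6 of 35 cytoskeleton and axon genes, 9 of 35 adhesion and guidance genes, 7 of 32 ubiquitin pathway genes, 2 of 35 synaptic genes and 1 of 13 nuclear long noncoding RNAs. These are 23.1%, 13.3%, 17.1%, 25.7%, 21.9%, 5.71% and 7.69%, against 2.53% of all genes with a site. Members were 0 of the 26 ion channel genes with a site, 0 of 13 for m6A machinery, 0 of 9 for immediate early genes, 0 of 14 for ribosomal protein genes and 0 of 16 for oxidative phosphorylation. The lists hold well-known genes and were chosen with earlier results known, so nothing is read from these shares. Read depth of the listed genes is not in the table, and its part in these counts was not tested.

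Some gene names need care. The names 2900097C17Rik and Gm28035 had no match in the RefSeq table. All 14 sites of 2900097C17Rik (mean 4.14% ± 4.39) fall inside the RefSeq spans of the long noncoding RNA genes Norad and Gm14170, and all 14 of Gm28035 (3.91% ± 3.95) inside that of the protein-coding gene Lrrc8a. The 10 sites of Kcnq1ot1 lie inside the span of Kcnq1, which is transcribed from the opposite strand, and the 13 of Pcdhgc3 inside the spans of other gamma-protocadherin genes. In all, 84 member sites in 13 genes also lay inside another protein-coding gene's span. For the 134 members with a strand in the promoter table, the strand of the sites was that of the gene in 134. In 6 genes 10 sites lay outside the matched span, 4 of them in Qk and 2 in Bace1.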

How the data were processed

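RNA of 2 libraries of NeuN-sorted nuclei was sequenced; 1 label field names polyA RNA, while the labels' protocol names a stranded total RNA kit. The submitters' processing notes name STAR 2.7.5 and mm10, and the series description names Bullseye for the site calls. The authors deposited 1 editing fraction per site for both libraries together. No source used here gives the coverage minimum, the control or how both libraries entered the list. Depth is unknown, and intervals cover the counting of sites only, with sites of the same gene taken as independent.

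Fractions were multiplied to percent. Sites were counted per gene name, ordered by position and matched to RefSeq genes of GRCm38.p6 (6439 names by symbol and 17 by a unique synonym, of 6929). Distances to gene ends use the strand of the site. Python 3.11.15, pandas 2.3.3 and scipy 1.17.1 were used, and the functions were tested on simulated data. Named genes follow a rule: genes with 17 to 19 sites, the extremes of mean level, extent, highest site and close spacing, members of 20 gene lists, genes that are not protein-coding, and examples of each functional group. The members, lists and groups were chosen with earlier results of these data known. Other minimum levels, limits of the rule and distances were tried. No comparison was tested, since the table has no values per library. Single-gene results of some members are not reported here.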

Additional observations from a re-analysis of the deposited data

How the results depend on the processing

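Of 24 recomputed values, 9 stayed within the interval of the reported value (or, for counts, within 1.5 times) and 15 moved. The intervals take sites of the same gene as independent, so wider intervals could change this split. The cause of the moves was not tested beyond what each setting does by construction. With sites of at least 2% only and the rule applied again, 62 genes with 769 sites remained in the range, 48 of them among the 175 and 14 from genes that had 20 or more sites. The median level was then 3.92%, the median distance between neighbours 277 bases, and 58.1% of sites lay in the last 5 kb. For genes with 8 to 15 sites there were 299 genes, with a median distance of 457 bases, 40.2% of sites within 100 bases of another and 47.7% in the last 5 kb. The median over gene means was 3.31%, against 2.52% over sites. Among neighbours within 5 kb of each other, the median distance was 171.5 bases. A neighbour lay within 50 bases of 32.0% of sites and within 200 bases of 57.2%. The last 2 kb held 30.8% of sites and the last 10 kb 57.6%. No paired analysis was possible because the table holds no values per library, and leaving out a library could not be done for the same reason.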

Other observations

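The bases around sites near transcription starts could be read for the whole list. RefSeq promoter windows held 254 sites in 235 genes, and the listed base was a cytidine on the strand of the site in all 254. The base before it was G at 51.2% of these sites, C at 21.7%, A at 16.5% and T at 10.6%. Over all 2422987 cytidines of the windows, on the gene's strand, these shares were 28.1% for G, 30.8% for C, 18.2% for A and 23.0% for T. Of the 232 sites with 10 bases on each side inside a window, 36.6% had GAC or AAC in those 21 bases on the strand of the site, against 38.0% around all cytidines. By part, GAC was present at 24.1% of these sites against 21.7%, GGAC (a subset of GAC) at 8.19% against 6.52%, and AAC at 15.1% against 19.8%. These shares rest on 56, 19 and 35 sites, and nothing is read from their differences. The shares are descriptions of a small part of the list, and the comparison cytidines need not be transcribed. The base context of sites elsewhere was not analysed here.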
